A study of Homo sapiens with 16 samples.

Results

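Called bases outside all gene spans are the positions in the 8 m6A-eCLIP libraries that lie in no annotated gene of any kind on either strand of the human genome build hg38, the mitochondrial chromosome left out. They numbered 24016 of the 452094 different bases called in at least 1 library. Gene spans came from a RefSeq table, so "outside" means outside the 59755 spans placed in that table. The study mapped N6-methyladenosine (m6A) in a glioma cell line, its drug-resistant derivative and the derivative under an inhibitor of methylation. U87-R is a temozolomide-resistant line derived from U87 MG and was grown with 50 µM temozolomide, an alkylating drug. In 2 libraries (U87-R + STM2457) U87-R had also received 50 µM STM2457 for 96 hours, a compound that blocks the catalytic site of METTL3, the enzyme that makes most m6A. A further 3 libraries were of U87-R and 3 of U87 MG (U87), an established human glioma line, and both carried a DMSO control label. Temozolomide was in the medium of both U87-R groups and not of U87, so resistance and the presence of the drug cannot be told apart. The labels do not say whether U87-R is 1 clone, nor whether replicates came from separate cultures. A p-value here therefore reflects how far these particular libraries scatter, which may be technical.

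Most m6A is placed on RNA by a complex of METTL3 and METTL14 while the RNA is being made, usually at an A followed by C and preceded by G. The first transcribed base of many messenger RNAs, when it is an A, carries a related mark, N6,2′-O-dimethyladenosine (m6Am), made by another enzyme, PCIF1, and m6A antibodies bind that mark too. RNA is also made outside annotated genes: polymerase starts upstream of annotated starts, runs away from promoters on the opposite strand, continues past gene ends, and transcribes unannotated genes. In m6A-eCLIP an antibody is crosslinked to fragments of polyA-selected RNA and the crosslinked base is found by sequencing. The matching 8 input libraries were not analysed here, so methylation and RNA abundance cannot be told apart in any value below.

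Each library was deposited as a list of bases with a score, which is the smallest of 4 scores given beside it. The deposited lists hold no read counts, so depth is unknown, and nothing was measured for a base missing from a list. The libraries listed 105900 and 110875 bases in U87-R + STM2457, 149477 to 192697 in U87-R and 150135 to 182556 in U87. Of 10 glioma or mesenchymal genes used to check the line, 7 had a called base in every library and 2, GFAP and SOX2, had none on the strand given to them. Of 10 markers of other cell types, 1 (PECAM1) had a called base in every library and 7 had none in any. Summed over the list, the libraries had 98 to 199 called bases in the first set and 2 to 10 in the second.

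The bases outside genes fell into 2 sets that behaved differently: those within 50 nt before an annotated gene start on their own strand, and all others. The limit of 50 nt was chosen after the values were seen. The following sequences, 25 bases each with the called base in capitals, show the first set at its extreme. They are the 6 genes with the highest mean score at a base 1 nt before the annotated start; the lower-case letter after the capital is the first annotated base of the gene. All sequences are 5′ to 3′ on the gene's strand, from the RefSeq promoter table (assembly GRCh38.p14, with the same chromosome coordinates as hg38).

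PPP1R12C (chr19:55117626-55117650, minus strand): gggggccagcggCagttcccggcgg

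ARHGDIA (chr17:81871326-81871350, minus strand): acgttcgtcattTagtgcgggaggg

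HNRNPAB (chr5:178204520-178204544, plus strand): agtcggcattgtCaggcggcggcac

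DEGS1 (chr1:224183227-224183251, plus strand): acagccggccgaCaccacaccagcc

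NORAD (chr20:36050949-36050973, minus strand): gaactgccaagtCagttccggtccg

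HAS1 (chr19:51723980-51724004, minus strand): cagctctctggcCacagagaggctg

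In all 6 the first annotated base is an A, and in 5 the called base before it is a C. PPP1R12C, a regulatory subunit of myosin phosphatase, scored 171 and 170 in U87-R + STM2457, 132, 128 and 132 in U87-R, and 126, 122 and 120 in U87. ARHGDIA scored 153 and 163 in U87-R + STM2457, 110, 132 and 119 in U87-R, and 115, 108 and 113 in U87. NORAD, a long noncoding RNA that binds Pumilio proteins, scored 122 and 121 in U87-R + STM2457, 97.3, 110 and 104 in U87-R, and 107, 102 and 108 in U87. For HNRNPAB, an RNA-binding protein, the scores were 143 and 146 in U87-R + STM2457, against 97.6, 124 and 112 in U87-R. For DEGS1, the desaturase that completes ceramide synthesis, they were 129 and 132 against 99.6, 112 and 104. For HAS1, a hyaluronan synthase, they were 127 and 120 against 97.7, 110 and 109. The mean score that picked these 6 bases includes the treated libraries.

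The other 4 sequences are the genes with the highest mean score among called A's in the letters GGAC, the core in which METTL3 commonly methylates.

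FJX1 (chr11:35618443-35618467, plus strand, 5 nt before the start): gaagcggcggggActcgagttccca

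FGF2 (chr4:122826646-122826670, plus strand, 24 nt before the start): gctccccgccggActgatgtcgcgc

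DRAP1 (chr11:65919351-65919375, plus strand, 63 nt before the start): ggcggcgctaggActccgcgggaaa

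FOSL1 (chr11:65890572-65890596, minus strand, 1465 nt past the end): cgttatggaaggAcagccaatccgg

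The base before FGF2, a fibroblast growth factor, was listed in neither treated library and scored 44.9, 75.6 and 33.6 in U87-R and 59.9, 75.3 and 68.7 in U87. The base before DRAP1, a subunit of a repressor of transcription by RNA polymerase II, was likewise listed in neither treated library and scored 51.2, 50.4 and 59.6 in U87-R and 46.3, 53.2 and 49.9 in U87. The base before FJX1 scored 5.56 and 24.8 in U87-R + STM2457, 67.6, 76.8 and 77.8 in U87-R, and 69.1, 72.1 and 68.1 in U87. The base past FOSL1, a subunit of the AP-1 transcription factor, scored 25.8 and 25.7 in U87-R + STM2457, 45.4, 33.2 and 41.2 in U87-R, and 38.7, 41.3 and 39.2 in U87. These 10 bases were picked by their height over all libraries and serve as descriptions.

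Sequence was available for 8730 of the bases, those at least 15 bases inside a promoter window of 250 bases before to 50 after a start. Of the 2183 such bases 1 nt before a start, 72.6% were C, 3.71% were A, and 88.4% were followed by an A as the annotated first base. Over the 27305 genes of the table, the first base was A in 44.4%, and C followed by a first A in 29.5%, against 68.4% of the called bases. Among the bases 1 nt before a start that were called in every library of a group, an A followed in 93.6% in U87-R + STM2457, 94.7% in U87-R and 94.8% in U87. The called genes are expressed genes and the table is not limited to them.

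Bases 2 to 50 nt before a start were A in 52.9% of 4331, and 51.2% of those A's followed a C, against 29.5% of all A's in the 250 bases before the starts of the table. The letters GGAC surrounded 2.01% of them, close to the 1.80% of all such A's. Of the 2216 remaining bases with sequence, 50.8% were A, and of these A's 14.1% stood in GGAC and 11.0% in GACT, against 1.80% and 1.4% of all A's before starts. GGAC and GACT can overlap in GGACT, and on either strand they occur in 87.3% and 83.1% of the 300-base windows, so a match is a description and not a site. Among the remaining bases called in every library of a group, GGAC surrounded 4.19% of the A's in U87-R + STM2457 (8 of 191), 13.2% in U87-R (15 of 114) and 17.3% in U87 (22 of 127).

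By position, 11946 of the 24016 bases (49.7%) lay within 1 kb before the start of the nearest gene on their strand, at a median of 25 nt. Distances were taken to genes whose strand was known. The set within 50 nt held 7961 bases (33.1%), of which 2683 were exactly 1 nt before a start. A further 1340 bases lay 1 to 10 kb before a start. Past a gene end, 1380 bases lay within 1 kb, 2480 at 1 to 10 kb and 1646 at 10 to 50 kb. The remaining 5224 (21.8%) were farther away, including 402 on unplaced scaffolds and alternative sequences where the table places no gene and the position relative to genes is not known. On chromosomes more than 1000 nt from every span on both strands, or on these scaffolds and alternative sequences, lay 8218 bases (34.2%). More than 50 kb from every span lay 516 (2.15%), all on chromosomes. For 4472 bases (18.6%) the strand of the nearest gene was itself inferred from called bases inside it. Among the clusters named below this holds for ITGB3, LPCAT2, KRT78, ENTPD4, CSF3, TRIM8 and RPL29P19. Their placement before or past these genes rests on that inference.

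The bases just outside and just inside the border between the sets and the genes can be set side by side at starts whose strand the tables give. In U87-R + STM2457, 1691 and 1643 bases were called 1 nt before a start, with median scores of 20.5 and 19.6, and 2246 and 2209 on the first annotated base, with medians of 28.8 and 29.2. In U87-R the numbers were 1170, 1204 and 1191 before the start (medians 18.0, 15.4 and 15.9) and 1628, 1695 and 1653 on the first base (medians 24.4, 22.7 and 22.8). In U87 they were 959, 1120 and 1070 before the start (medians 15.1, 17.4 and 16.7) and 1389, 1589 and 1513 on it (medians 20.5, 23 and 22). The called bases thus run across the annotated border, which the rule cuts at its first base.

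**Figure D1:**
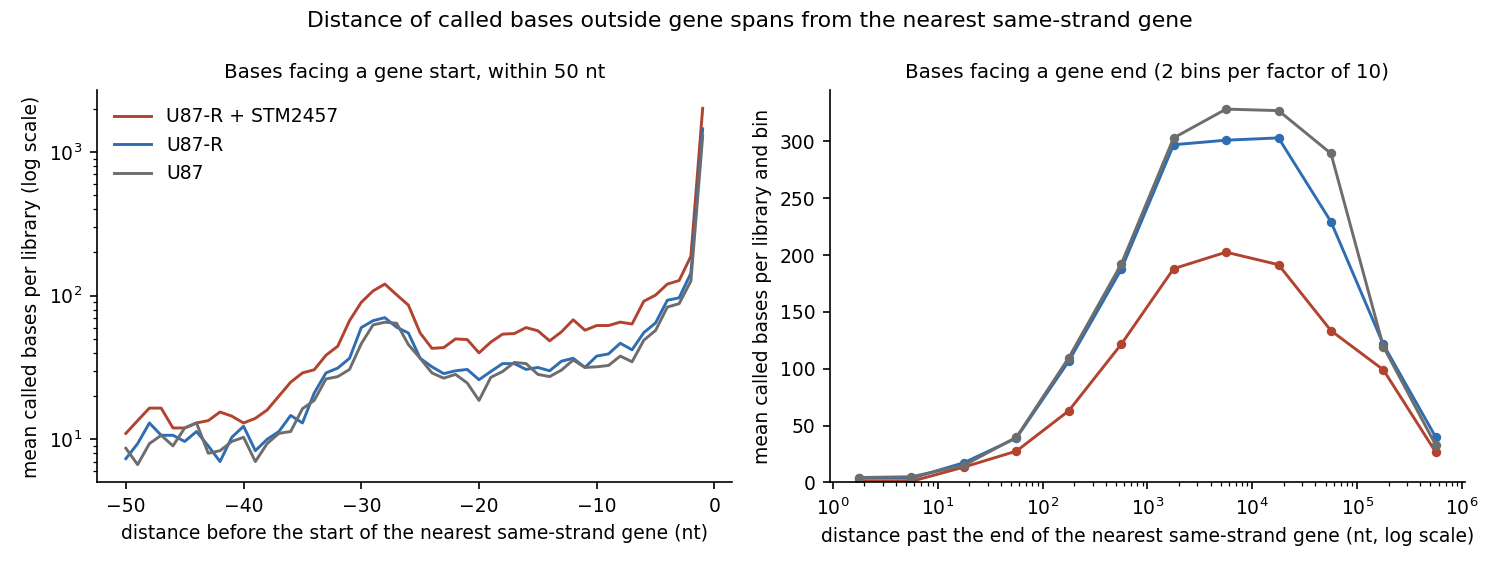
Mean number of called bases per library against distance before the start (left, nt, log scale on the vertical axis) and past the end (right, nt, log scale on the horizontal axis) of the nearest same-strand gene, for U87-R + STM2457 (2 libraries), U87-R and U87 (3 each). All groups peak at 1 nt before a start, with a second rise at 24 to 33 nt that is highest at 28 nt, and the U87-R + STM2457 line lies mostly above the others before starts and below them past ends.

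Distance before the start had a second maximum. Mean numbers per library were 2017.5 at 1 nt and 188.5 at 2 nt in U87-R + STM2457, 1453 and 144 in U87-R, and 1290 and 127 in U87, and then declined to 40.0, 26.0 and 18.7 at 20 nt. At 28 nt they were 121, 70.3 and 65.3, and at 40 nt 13.0, 12.3 and 10.3. Between 24 and 33 nt before a start, a window chosen after the values were seen, each library had on average 754 ± 2.83 bases in U87-R + STM2457 (SD, n = 2), 478 ± 16.5 in U87-R and 434 ± 73.6 in U87 (SD, n = 3 each). Of the 606 genes with a called base there and a promoter sequence, 24 (3.96%) held the letters TATA between 36 and 21 nt before the start, against 5.92% of all 27305. Of the 1176 called bases there, 53.0% were A.

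Scores outside genes were lower than inside in every library. The median score averaged 6.17 outside and 8.18 inside over the 8 libraries, a difference of -2.01 ± 0.928 (SD; exact two-sided sign-flip permutation test over libraries, p = 0.0078, the smallest possible, adjusted 0.0117 over 6 such tests). That difference was smaller in U87-R + STM2457, with medians of 8.09 outside against 8.51 inside, and 7.68 against 8.34. In U87-R and U87 the medians were 5.16 to 6.00 outside and 7.81 to 8.47 inside. Scores of 10 or more were reached by 38.0% of bases outside and 45.1% inside, lower outside in 8 of 8 libraries (exact permutation p = 0.0078, adjusted 0.0117). Within the bases outside genes, the median was 11.3 within 50 nt before a start and 3.60 for the others, higher before starts in 8 of 8 libraries. As the limit of 50 nt was set on these values, no p is given for that split.

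Reproducibility split the same way. On average 75.6% of a library's bases within 50 nt before a start were called in another library of its group, against 51.9% of the other bases outside genes, higher in 8 of 8 libraries, again with no p. Over all bases outside genes the share was 62.7%, against 67.5% inside; it was higher outside in both U87-R + STM2457 libraries and lower in the other 6, and did not pass correction (exact permutation p = 0.0469, adjusted 0.0563). Among bases scoring 10 or more the shares were 91.9% outside and 92.2% inside (exact permutation p = 0.703). Of the bases called in either of a pair of libraries of 1 group, both called 44.2% outside in U87-R + STM2457, 33% to 36.7% in U87-R and 32.6% to 34.3% in U87, and inside 41.5%, 40.9% to 43.2% and 41.4% to 42.1%.

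Single-library calls were common: 12863 bases outside genes (53.6%) were called in 1 library only, against 47.9% inside, and 1554 (6.47%) in all 8, against 6.83% inside. Of the 2683 bases 1 nt before a start, 715 (26.6%) were called in all 8 libraries. Of the 16055 bases not within 50 nt before a start, 401 (2.5%) were.

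Few bases outside genes were on the reproducible site lists deposited by the authors. There were 236 of 12791 sites (1.85%) in U87-R + STM2457, 252 of 35207 (0.716%) in U87-R and 245 of 33396 (0.734%) in U87. Of these, 154, 87 and 67 lay within 50 nt before a start and 82, 165 and 178 elsewhere. The U87-R + STM2457 and U87-R lists shared 61 sites within 50 nt before a start (39.6% of the first list's and 70.1% of the second's) and 48 elsewhere (58.5% and 29.1%). Inside genes they shared 79.2% of the first list and 28.5% of the second. The authors' lists of reproducible peaks had 559 of 50028 peaks (1.12%), 798 of 96528 (0.827%) and 889 of 95629 (0.930%) wholly outside genes in these 3 groups. Of the bases called in every library of a group, 28.4% outside genes and 62.0% inside lay in a reproducible peak in U87-R + STM2457, 26.7% and 76.1% in U87-R, and 26.2% and 75.5% in U87. These lists join the libraries of a group and carry no replicate error.

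The comparison of U87-R + STM2457 with U87-R asks what inhibition of METTL3 did to these bases. The treated libraries had about as many of them in all, with more just before gene starts and a lower mean number elsewhere. The totals were 7646 and 7985 in U87-R + STM2457 and 8162, 6425 and 7188 in U87-R, and these ranges overlap (mean 7816 ± 240, SD, n = 2, against 7258 ± 871, n = 3; exact two-sided permutation p = 0.5). With 2 libraries against 3 this test cannot go below 0.1, which becomes 0.246 after adjustment over the 32 such tests made here, so no such difference could pass a threshold of 0.05.

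Within 50 nt before a start there were 4639 and 4611 bases in U87-R + STM2457, against 3184, 3128 and 3131 in U87-R, a ratio of 1.47 with no overlap (exact permutation p = 0.1). At 1 nt before a start the means were 2018 ± 41.7 and 1453 ± 8.00. The other bases outside genes numbered 3007 and 3374 in U87-R + STM2457 and 4978, 3297 and 4057 in U87-R, a ratio of 0.776 with overlap (exact permutation p = 0.3). As fewer bases were called in all in treated libraries, these others still made up 2.84% and 3.05% of all called bases there, against 2.59%, 2.21% and 2.38% in U87-R.

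Within 10 kb past a gene end the numbers were 562 and 675 in U87-R + STM2457 and 1211, 664 and 993 in U87-R, which overlap, and they made up 7.90 ± 0.780% and 13.0 ± 2.36% of the bases outside genes (exact permutation p = 0.2). Upstream of starts on the opposite strand, within 1 kb and not within 1 kb before a start of their own strand, U87-R + STM2457 had on average 222.5 ± 0.707 bases and U87-R 325 ± 40.0 (ratio 0.685, exact permutation p = 0.1). Such bases lie where RNA running away from a promoter is found.

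**Figure D2:**
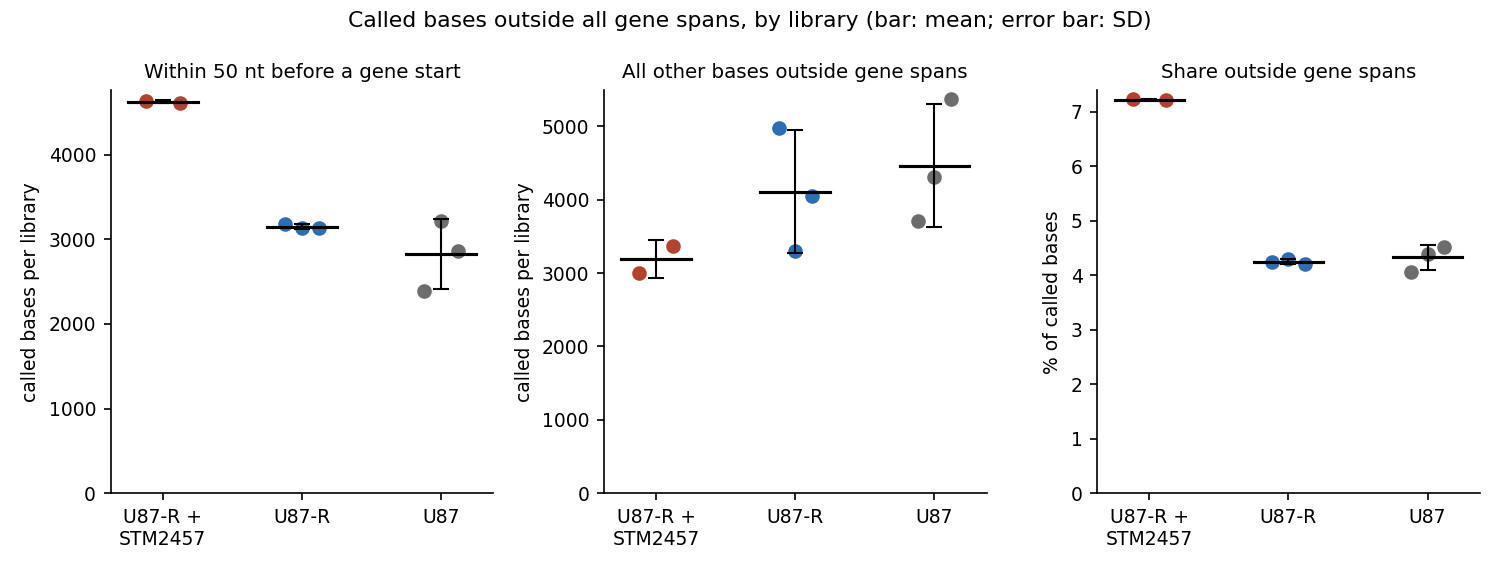
Called bases outside all gene spans in each library (points): number within 50 nt before a same-strand gene start, number elsewhere, and the share of all called bases that lie outside genes (%). Bars are group means and error bars SD. Both U87-R + STM2457 libraries are above every U87-R and U87 library in the left and right panels.

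The share of all called bases that lay outside genes was 7.23% and 7.21% in U87-R + STM2457, against 4.24%, 4.30% and 4.22% in U87-R (exact permutation p = 0.1). The median score outside genes was 7.89 ± 0.293 in U87-R + STM2457 and 5.76 ± 0.208 in U87-R (exact permutation p = 0.1). It was 12.6 ± 0.220 and 11.0 ± 0.390 within 50 nt before starts, and 4.01 ± 0.0465 and 3.5 ± 0.0212 elsewhere (exact permutation p = 0.1 each). A median over listed bases depends on which bases were listed.

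Following single bases gave the fate of the strong ones. A strong base was one that scored 10 or more in each of the 3 U87-R libraries. Of 1480 such bases outside genes, 5.81% were listed in neither treated library (exact 95% binomial interval 4.67% to 7.13%, which covers counting error only) and 83.3% scored 10 or more in both. Inside genes, 27.3% of 44943 were absent and 45.3% kept that score. At 1 nt before a start 3 of 658 (0.456%) were absent and 96.4% kept. At 2 to 50 nt, 2.48% of 403 were absent and 89.1% kept.

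Away from starts the values came nearer to those inside genes. Of 170 bases at 51 to 1000 nt before a start, 9.41% were absent and 65.9% kept. Of 69 within 10 kb past an end, 23.2% were absent (13.9% to 34.9%) and 44.9% kept. Of 102 more than 10 kb before a start or 50 kb past an end, 19.6% were absent and 53.9% kept. Bases are not replicates, and these shares carry no test. Strong bases were not matched for score between positions. In every library, listed bases 1 nt before a start had a higher median score than those inside genes.

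**Figure D3:**
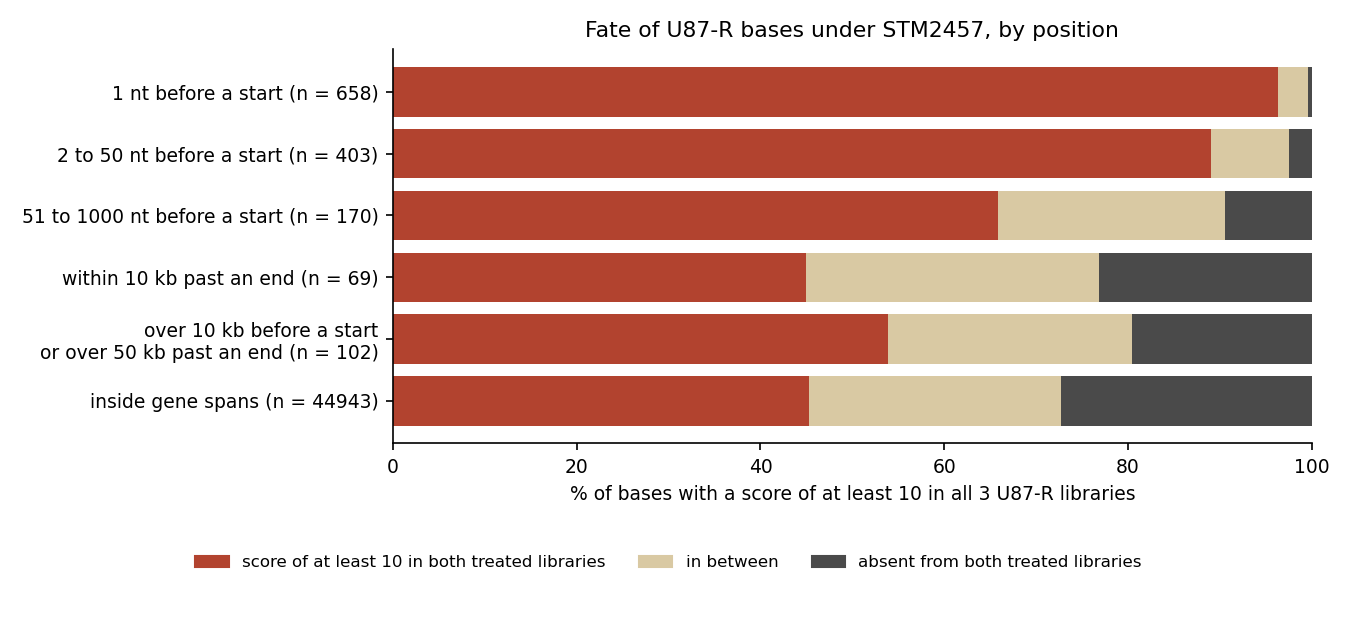
Fate in U87-R + STM2457 of strong U87-R bases (scores of 10 or more in each of 3 libraries), as % of the bases of each position (horizontal axis), with the number of bases beside each position. From top to bottom the part kept in both treated libraries is 96.4%, 89.1%, 65.9%, 44.9%, 53.9% and, inside gene spans, 45.3%.

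For a test across libraries, neighbouring bases outside genes on 1 strand, at most 1000 nt apart, were joined into 7422 clusters. Of these, 3519 (47.4%) were a single base and 1241 had a base in all 8 libraries. In 3629 (48.9%) the base with the highest summed score lay within 50 nt before a start. Scores were summed per cluster and library and compared on the log2(sum + 1) scale with limma, together with blocks of overlapping genes, 13785 loci in all. A cluster with no listed base in a library entered as 0. Of 2729 clusters tested, 398 rose in U87-R + STM2457 relative to U87-R and 133 fell at a limma adjusted p under 0.05, while over all loci 8.18% rose and 29.2% fell. Those balances depended on scaling: over all loci there were 2352 rising and 2893 falling when libraries were centred on their median, and 2789 and 2553 when scaled to the same total; the medians of the gene blocks below became -0.17 and -0.06. The rising and falling clusters are 14.6% and 4.87% of those tested, and the clusters' median log2 change was 0.88, against -0.65 over 11056 gene blocks and -0.41 over all loci.

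The count of 398 rests in part on how clusters entered the test. A cluster needed a sum of 10 or more in 2 libraries, which the 2 treated libraries alone could give, and 161 of the 398 (40.5%) had no base listed in any U87-R library. With that filter applied again after leaving out a treated library, 9 clusters rose without replicate 1 and 14 without replicate 2. With the loci of the full set kept, 208 rose and 73 fell without U87-R + STM2457 replicate 1, and 211 and 89 without replicate 2; the lone treated library was then assumed to vary like the other groups. The U87 libraries enter neither mean of the comparison, though they enter its estimate of the spread. They can choose the clusters in place of the treated ones, a choice made after the values were seen. It leaves out clusters listed only in treated libraries. Of the 1552 clusters with a sum of 10 or more in at least 2 U87 libraries, 99 rose and 108 fell (limma adjusted p under 0.05), or 6.38% and 6.96%, beside 4.54% and 35.2% of the 11113 loci chosen in that way, with medians of 0.57 and -0.61. Among these clusters 79 of 1061 led by a base within 50 nt before a start rose and 8 fell (median 0.76). Of the other 491, 20 rose and 100 fell (median -0.66). When centred, 419 of the 1552 rose and 81 fell (27.0% and 5.22%), beside 14.5% and 25.25% of those 11113 loci. When scaled, 538 rose and 83 fell (34.7% and 5.35%), beside 18.2% and 22.1%.

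Of all 1909 tested clusters led by a base within 50 nt before a start, 311 rose and 13 fell, with a median log2 change of 1.08. These could enter through the treated libraries alone, and the median was 0.76 over the 1061 chosen by U87. For all 1909 the numbers were 630 and 10 when centred (median 1.56) and 765 and 11 when scaled (median 1.66). Of the other 820, 87 rose and 120 fell, with a median of -0.30 (-0.66 over the 491 chosen by U87). Higher calls were 75.0% of the calls in clusters without scaling of the libraries, 88.5% when libraries were centred on their median and 89.4% when scaled to the same total. Those scalings shift the median of all loci to 0.07 and 0.17, and turn the balance of the other 820 clusters to 144 rising and 91 falling, and to 148 and 97, with medians of 0.17 and 0.11. Within 10 kb past gene ends, 22 of 187 clusters rose and 34 fell (median -1.09); the numbers were 26 and 28 when centred (median -0.62) and 27 and 26 when scaled (median -0.63).

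Of the 133 falling clusters 54 (40.6%) had no base listed in either treated library. For single bases, limma called 1184 of 8742 tested bases outside genes higher and 285 lower (adjusted p under 0.05), against a background of 6.64% and 16.9% of 188572 bases. Within 50 nt before a start 864 of 4253 were higher and 32 lower, and elsewhere 320 of 4489 higher and 253 lower. These bases too could enter through the treated libraries alone. Of the 5348 listed in 2 or more U87 libraries, 365 were higher and 247 lower, beside 2.62% and 22.3% of all 135158 such bases; within 50 nt before a start 309 of 2448 were higher and 29 lower, and elsewhere 56 of 2900 higher and 218 lower. Lower calls outside genes numbered 519 without U87-R replicate 2 and 186 without U87-R + STM2457 replicate 1, with the same bases tested.

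**Figure D4:**
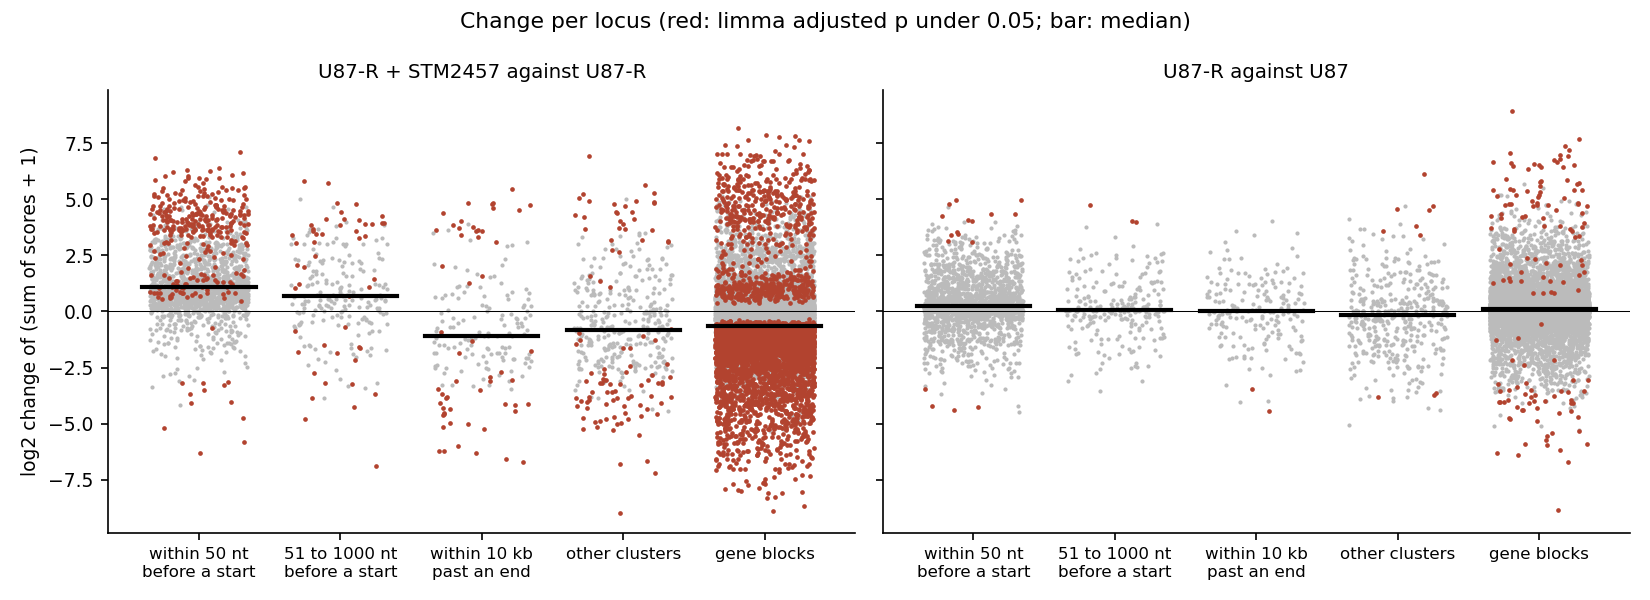
Log2 change of (sum of scores + 1) for each tested locus (points; red, limma adjusted p under 0.05; bars, medians), by position of the cluster's leading base and for gene blocks, in both comparisons. Under STM2457 the median is 1.08 for clusters within 50 nt before a start, -1.09 within 10 kb past an end and -0.65 for gene blocks. Over loci chosen by the U87 libraries, not drawn, the first is 0.76 and that of the gene blocks -0.75. Few loci are red in U87-R against U87.

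The largest rises among clusters that had a base in both treated libraries and did not overlap U87-R were 10 clusters with no base listed in any U87-R library, so no fold is given. They entered the test through the treated libraries in which they are high, so no p is given for them and their sums are a description. Of these, 9 were led by a base 1 to 27 nt before a start. The cluster before SF3B6, a subunit of the U2 splicing particle, had sums of 151 and 124 in U87-R + STM2457, and was listed at 0 in the 3 U87-R libraries and at 0, 18.7 and 0 in U87. The cluster before COPS2, a subunit of the COP9 signalosome, had 127 and 53.4, and that before PNRC1, a nuclear receptor coactivator, 63.9 and 92.5, both listed at 0 in all 6 other libraries.

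The clusters before AP1S1, a subunit of a clathrin adaptor (60.0 and 88.5), DHRS7B (69.9 and 62.0) and ZNRD2 (117 and 48.7) were also listed at 0 in all U87-R and U87 libraries. The cluster before OLFML3, a secreted glycoprotein, had 86.8 and 48.9 and a single sum of 0.755 in U87. The cluster before the integrin subunit gene ITGB3 had 129 and 101 in U87-R + STM2457, 0 in all U87-R libraries and 64.6 in 1 U87 library. The cluster before VAC14, a scaffold of the complex that makes phosphatidylinositol bisphosphate, had 83.9 and 61.9 in U87-R + STM2457 and 22.6 in 1 U87 library. The calls for ITGB3 and VAC14 were lost when either treated library was left out. The clusters before COPS2, PNRC1, AP1S1, DHRS7B, ZNRD2 and OLFML3 then no longer passed the filter and could not be tested at all. The remaining cluster, at chr15:55746635-55746637 on the plus strand, lay 154839 nt past the nearest same-strand end. The start of PRTG, on the opposite strand, was 3484 nt away. Its sums were 118 and 124, with no base listed in the other 6 libraries. This cluster too could not be tested when either treated library was left out and the filter applied again.

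Among the largest falls, 9 clusters had no base listed in either treated library. Their sums in U87 would have carried all those described here into the test without U87-R. The strongest was at chr5:18163003-18163020 on the plus strand, 232514 nt past the nearest same-strand gene end (LINC02223), where 10 bases were called. Its sums were 0 and 0 in U87-R + STM2457, 597, 343 and 602 in U87-R, and 423, 319 and 380 in U87 (limma adjusted p = 2.81e-05). Its first base alone scored 79.4, 72.8 and 90.8 in U87-R and 73.8, 75.2 and 71.0 in U87. The nearest gene known to lie on the other strand, H3Y1, was 507154 nt away.

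The cluster 26669 nt before SNX9 held 35 bases over 551 nt and had no base listed in treated libraries, sums of 278, 87.1 and 125 in U87-R and 319, 250 and 346 in U87 (limma adjusted p = 0.000121). The cluster 1388 nt past the end of KRT78 held 22 bases and had sums of 114, 87 and 111 in U87-R and 179, 105 and 319 in U87 (limma adjusted p = 0.000143). The cluster 1092 nt past the end of ACP7 held 32 bases and had sums of 2.47 and 0 in U87-R + STM2457, 287, 43.3 and 216 in U87-R and 240, 257 and 343 in U87 (limma adjusted p = 0.00105). Further clusters lay 4164 nt past ENTPD4, 7219 nt past NHSL2, 24677 nt before NPS and on the alternative sequence KZ208915.1.

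A pair of falling clusters lay close to starts. Before CD44, the hyaluronan receptor, 2 bases, the nearer 3 nt from the start, were listed in neither treated library and summed to 55.1, 75.3 and 116 in U87-R and 34.0, 53.1 and 44.3 in U87 (limma adjusted p = 0.000234). Before LPCAT2, a lysophospholipid acyltransferase, a cluster at 121 nt had 170, 73.3 and 134 in U87-R and 176, 45.8 and 155 in U87 (limma adjusted p = 0.000304). Among single bases, 1 at 2 nt before GLRX, the gene of a glutaredoxin, was also listed in neither treated library and scored 65.0, 69.2 and 66.3 in U87-R and 45.0, 56.3 and 49.4 in U87 (limma adjusted p = 2e-05).

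**Figure D5:**
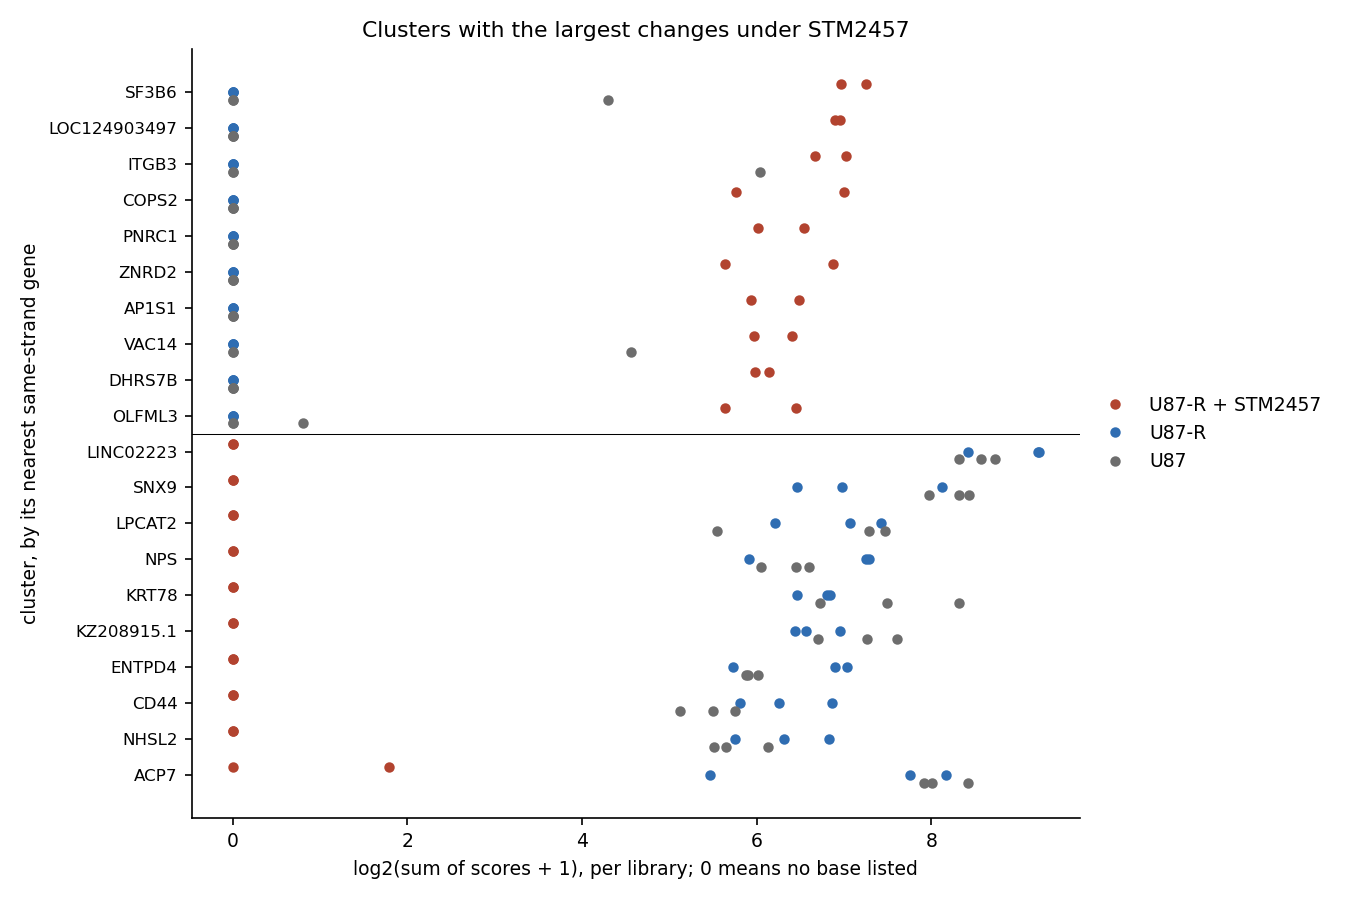
Sum of scores per library, as log2(sum + 1) (horizontal axis), for the 10 clusters with the largest rises (upper block) and the 10 with the largest falls (lower block) in U87-R + STM2457 against U87-R, labelled by the nearest same-strand gene or by the sequence name. Points are libraries, in rows of U87-R + STM2457, U87-R and U87 from top to bottom; 0 means that no base was listed. All 10 upper clusters have no base in U87-R, and 9 of the lower have none in U87-R + STM2457.

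The clusters with the highest sums over all libraries were of both kinds, and most of their calls depended on the scaling. Before PSMB4, a proteasome subunit, 7 bases within 9 nt summed to 697 and 707 in U87-R + STM2457, 644, 686 and 664 in U87-R, and 556, 574 and 636 in U87 (limma log2 change 0.08 ± 0.115 SE, adjusted p = 0.611, U87-R + STM2457 against U87-R; 0.55 and 0.0404 when centred, 0.69 and 0.00824 when scaled). Before CSF3, the granulocyte colony-stimulating factor gene, the sums were 680 and 700 in U87-R + STM2457, 586, 678 and 633 in U87-R, and 802, 713 and 748 in U87 (log2 change 0.13, limma adjusted p = 0.425; 0.74 and 0.0183 when scaled). Before ARHGDIA the cluster rose, with 732 and 761 in U87-R + STM2457, against 483, 566 and 569 in U87-R (log2 change 0.47 ± 0.122 SE, limma adjusted p = 0.0185). That call was lost without either treated library (limma adjusted p up to 0.17) and with the replicate number as a block (0.0597), and held under both scalings.

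Several broad clusters had lower sums in treated libraries. A stretch of 71 bases over 1674 nt, 12274 nt past the end of the integrin subunit gene ITGB1, summed to 235 and 320 in U87-R + STM2457, against 835, 480 and 708 in U87-R (log2 change -1.26 ± 0.315 SE, limma adjusted p = 0.0161; not past the threshold when scaled to the same total, at 0.0893, or without U87-R + STM2457 replicate 1). The cluster 330 nt before TPM2, a tropomyosin gene, fell (log2 change -1.63, limma adjusted p = 0.0347), with 162 and 285 in U87-R + STM2457, against 949, 376 and 833 in U87-R. The cluster between FOSL1 and FIBP, which holds the FOSL1 sequence printed above, had 303 and 422 in U87-R + STM2457, against 868, 523 and 758 in U87-R (log2 change -0.97 ± 0.233 SE, limma adjusted p = 0.0134). The base that led it lay 500 nt from the start of CCDC85B on the opposite strand. The cluster before TRIM8, a ubiquitin ligase, with 65 bases over 1228 nt, had 416 and 370 in U87-R + STM2457, against 853, 474 and 670 in U87-R (log2 change -0.72, limma adjusted p = 0.0486). A 4-base cluster at chr9:11825082-11825086, 868303 nt from the nearest same-strand gene (TYRP1), had 288 and 266 in U87-R + STM2457, against 1414, 892 and 490 in U87-R (log2 change -1.62, limma adjusted p = 0.0314). The end of LOC101929446, on the opposite strand, was 1124 nt from that cluster. The largest by sum, 79 bases at chr11:65914705-65916784 on the plus strand, 4715 nt before DRAP1, had 514 and 638 in U87-R + STM2457, against 858, 761 and 932 in U87-R (log2 change -0.57 ± 0.367 SE, limma adjusted p = 0.255; log2 change 0.045 when scaled). The calls for TPM2, FIBP, TRIM8 and TYRP1 were lost under both scalings and without U87-R + STM2457 replicate 1. Those for TPM2, TRIM8 and TYRP1 were also lost without the filter and with the replicate block. The same 3 were lost without U87-R replicate 1, and without 1 other U87-R replicate. Those for TRIM8 and TYRP1 were lost without U87-R + STM2457 replicate 2 as well.

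The comparison of U87-R with U87 asks what differs between the resistant line, in its drug, and the parental line. It uses the same 3 U87-R libraries as the comparison above. Bases outside genes numbered 8162, 6425 and 7188 in U87-R and 6103, 7517 and 8230 in U87 (means 7258 ± 871 and 7283 ± 1083, SD over 3 libraries each; p = 0.9 by the exact permutation test). They were 4.25 ± 0.0442% and 4.33 ± 0.231% of called bases (exact permutation p = 0.6), with median scores of 5.76 ± 0.208 and 5.43 ± 0.251 (exact permutation p = 0.2). Within 50 nt before a start there were 3184, 3128 and 3131 bases in U87-R and 2390, 3211 and 2863 in U87, which overlap (exact permutation p = 0.4). At 1 nt before a start the means were 1453 ± 8.00 and 1290 ± 103, and these groups did not overlap (ratio 1.13, exact permutation p = 0.1, the smallest possible, adjusted 0.246). Of 1435 bases scoring 10 or more in each U87 library, 0.627% were listed in no U87-R library and 75.9% scored 10 or more in each of them, against 0.287% and 80.3% of 43235 inside genes. In the other direction, of the 1480 bases scoring 10 or more in each U87-R library, 0.338% were listed in no U87 library and 73.6% scored 10 or more in each, against 0.383% and 77.2% of 44943 inside genes, so the order of the absent shares turned.

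Few clusters differed: 23 of 2729 rose in U87-R relative to U87 and 9 fell (limma adjusted p under 0.05), or 0.843% and 0.330%, beside 0.834% and 0.45% of all loci, so the clusters' shares are near the background. No single base outside genes passed in either direction with limma, where 994 of 8742 had an unadjusted p under 0.05 and 0.00053% and 0.0% of all bases were called. With the replicate number as a block, 1 cluster rose and 0 fell, and without U87 replicate 2 the numbers were 42 and 25. Leaving out U87-R replicate 2 gave 41 and 18, leaving out U87 replicate 1 gave 15 rising, and leaving out the third U87-R library gave 2 falling. With U87-R replicate 2 left out, 136 single bases outside genes rose and 20 fell, against 0 in the full set.

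Of the 23 rising clusters 19 had no base listed in U87. Those before KRT75, a hair-follicle keratin (43.4, 18.4 and 35.1 in U87-R), NAB2, a corepressor of EGR transcription factors (22.8, 35.4 and 23.6), and SECISBP2L (34.9, 31.0 and 25.1) were listed at 0 in all 3 U87 libraries (limma adjusted p = 0.00781, 0.00693 and 0.00693). The same was true before NDUFB6, a subunit of respiratory complex I (27.9, 18.9 and 14.1), and TAP2, the peptide transporter of antigen presentation (21.5, 24.1 and 14.3), with limma adjusted p = 0.0101 and 0.0115. All 5 were also called in both treated libraries, at sums of 18.3 to 53.7, which would have carried them into the test without U87-R. Of the 1988 clusters with a sum of 10 or more in both treated libraries, 17 rose in U87-R relative to U87 and 2 fell (limma adjusted p under 0.05), beside 0.869% and 0.129% of the 10823 loci chosen in that way. A pair of clusters on the scaffold KI270442.1 had sums of 115, 47.4 and 57.3, and 23.5, 15.9 and 27.6, in U87-R and 0 in U87 (limma adjusted p = 0.00485 and 0.00782). Their position relative to genes is not known.

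Among the 9 falling clusters, the one 1 nt before ESM1, the gene of endocan, had sums of 0 in all U87-R libraries and 20.9, 10.9 and 23.6 in U87. The cluster 4319 nt past PTGES, a prostaglandin E synthase, had 0.134, 0 and 0.780 in U87-R, against 28.3, 11.7 and 51.7 in U87. Both entered the test through the U87 libraries alone, so no p is given for them. The cluster 1 nt before CAMTA1 had 0, 0.269 and 0 in U87-R, against 39.6, 9.59 and 20.4 in U87, and 35.8 and 32.4 in U87-R + STM2457 (limma adjusted p = 0.0245 for U87-R against U87, lost with a pseudocount of 10 in place of 1, with the replicate block and when single libraries were left out). The calls for KRT75, NAB2 and SECISBP2L were lost with the replicate block alone (limma adjusted p = 0.0574, 0.0555 and 0.0555), and those for NDUFB6 and TAP2 with the block and without the filter (limma adjusted p up to 0.0725 and 0.0774).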

How the data were processed

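For each library the authors deposited called bases with their scores, and per group lists of reproducible sites (the fraction of libraries passing and a combined score) and peaks. The build was hg38 and the tools included STAR, cutadapt and UMI-tools, per the submitters' processing notes; versions, callers and any normalization: not given in the sources used here. RNA was polyA-selected and processed by a commercial provider, per the labels' protocols. In all 1233307 entries the score was the smallest of 4 component scores.

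Gene spans came from a RefSeq table without strand on GRCh38.p14. Strand came from RefSeq promoter and miRNA tables for 29077 of 59755 genes. For 2313 it came from at least 5 called bases inside the span, 80% or more on 1 strand, and 28365 genes got none. Genes without strand count as spans but not for distances.

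Loci (summed score 10 or more in 2 or more libraries) and bases (listed in 2 or more libraries of 1 group) were fitted with limma 3.58.1 (R 4.3.3), mean-variance trend, pseudocount 1, 3 group means, no scaling and Benjamini-Hochberg adjustment. In data simulated for the treated comparison the fit was checked for calls and signs. Other values were computed with Python 3.11.15, and exact permutation tests were two-sided.

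Named clusters were the 10 largest changes per direction and comparison among called clusters whose groups did not overlap and whose higher group had a base in each library, and the 10 highest sums; named bases were up to 5 per direction. Members, lists and rules were chosen with earlier results of these data known. Input libraries were not analysed here.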

Additional observations from a re-analysis of the deposited data

How the results depend on the processing

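Values below are U87-R + STM2457 minus U87-R unless U87-R minus U87 is named. Without bases within 50 nt before starts the number of bases outside genes differed by -920.2, 17.4% of strong U87-R bases were absent under STM2457 and 57.3% kept (59.4% kept, U87 to U87-R), and 87 clusters and 320 bases rose. Without clusters led by such bases, 10 rose and 5 fell in U87-R against U87, and the share past ends differed by 0.617 points. More than 1000 nt from every span, the differences were -820.0 bases, -0.0164 points in share, and for U87-R minus U87 -0.0423 in median score and 0.629 points in the share past ends. There, 25.5% were absent and 47.8% kept under STM2457 (1.32% and 49.8%, U87 to U87-R), 32 clusters rose and 76 fell, and 8 rose in U87-R against U87. The clusters counted there included those on scaffolds and alternative sequences. At scores of at least 10 the number differed by 74.7 between U87-R and U87. With any score, 15.7% were absent and 59.1% kept (4.21% and 46.9%, U87 to U87-R). Centring gave 774 rising clusters and scaling 913, and 17 and 15 falling in U87-R against U87. No filter gave 4 and 2 calls and a pseudocount of 10 gave 13 rising in U87-R against U87. For bases, testing those called in any library gave 384 and 186, and a pseudocount of 10 gave 178 falling and, in U87-R against U87, 1 and 1. The cause of these shifts was not tested, apart from the smaller or larger number of loci tested.

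Leaving out each library in turn, with the filter applied again, gave 9 to 421 rising and 73 to 166 falling clusters and 81 to 1226 and 163 to 555 bases; for U87-R against U87, 15 to 43 and 4 to 22 clusters, and 0 to 184 and 0 to 171 bases. The lowest rising numbers came without a treated library, where no locus or base could enter the test through the treated group alone. What else lowered them was not tested. With the same loci and bases tested, the ranges were 208 to 428 (211 without U87-R + STM2457 replicate 2) and 73 to 168 clusters, 982 to 1167 and 186 to 519 bases, and for U87-R against U87 15 to 42 and 2 to 25 clusters (41 and 18 without U87-R replicate 2), and 0 to 136 and 0 to 20 bases. Differences ranged over 140.5 to 1009 bases (U87-R minus U87 -615.2 to 448.3), 2.95 to 2.99 points in share (-0.203 to 0.0186), 1.92 to 2.33 in median score (0.203 to 0.453) and -6.42 to -4.17 points past ends (-1.61 to 0.636).

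Same-numbered libraries deviated together at correlations of 0.0981, 0.288 and 0.0793 between U87-R and U87. Differently numbered libraries of these groups gave -0.203 to 0.140. Between U87-R + STM2457 and U87-R the same-numbered values were -0.0214 and -0.0270. These values do not settle whether the numbers pair libraries, and the main fit did not pair them. The replicate block left 322 rising and 101 falling clusters and 795 and 194 bases under STM2457, and 1 and 0 clusters in U87-R against U87. Over 604 alternative values of named clusters, 502 kept direction and call, 96 lost the call, 3 gained it and 3 reversed: DRAP1 (0.045) and RPL29P19 (0.13) when scaled, and TPM2 (1.90) more than 1000 nt from spans. A further 52 alternative values of named clusters could not be given, as the cluster was not in that fit. Depth limits are unknown, since no read counts were used.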
